A study of Mus musculus with 6 samples.

Results

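Matrix proteases, their inhibitors and the plasminogen activators were examined in B16F10 cells as 9 genes, Mmp2, Mmp9, Mmp14, Timp1, Timp2, Timp3, Plau, Plat and Plaur, taken by gene symbol from a table of 27179 genes. All 9 symbols were found, each in 1 row, and all 9 genes had reads, as did 21154 of the 27179 genes. Of 20810 protein-coding genes, the type of all 9, 17541 had reads. B16F10 is an established mouse melanoma line, labelled wild type, and its RNA was sequenced after 6 h with 0.01% ozonated olive oil (OZO, 3 libraries) or 0.01% olive oil without ozone (OLO, 3 libraries). The oils were added to serum-containing culture medium, and the paper describes the 3 libraries of a group as independent experiments. The level analysed here is the authors' average of log2 CPM, the read counts scaled to a common library size, over all 6 libraries, OZO and OLO together. The authors' own comparison of OZO with OLO was not used, so no difference between OZO and OLO is given here. The average has no standard deviation, so no pair of neighbouring levels can be said to differ beyond the spread between libraries.

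Matrix metalloproteinases are zinc enzymes that cut collagens and other proteins of the extracellular matrix, and are made as inactive proenzymes. TIMPs are small secreted proteins that bind and block them. The plasminogen activators urokinase and tPA cut plasminogen to plasmin, a broad protease that degrades fibrin and can activate some metalloproteinases, and a membrane-anchored receptor holds urokinase at the cell surface. Both systems are known for their part in the movement of melanoma cells through tissue.

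The levels of the 9 genes spanned from barely detected to among the upper genes of these cells. Timp2 had the highest level per kb of exon and Plau the lowest, and 6 of the 9 genes averaged at least 1 CPM, against 11878 of all 27179 genes (43.7%). The closer shares were 53.8% of protein-coding genes and 56.2% of genes with reads, so 6 of 9 was not far from the general share. Genes of different length were compared as CPM per kb of exon, with lengths from GENCODE M21, whose genes carry Ensembl identifiers. The counts may rest on other exons, since only 24126 of the 27179 genes carry such an identifier, and all levels per kb share this uncertainty. On this scale the order was Timp2, Mmp14, Timp3, Plaur, Plat, Mmp2, Timp1, Mmp9 and Plau. That order stayed the same when the length was that of the longest transcript or of the best supported transcript. At 1 CPM a gene rested on 19.6 reads per library, including the 0.5 reads added to its count, from a geometric mean library size of 19641946 scaled reads. Totals of the single libraries were not analysed here. A gene without any read carries 0.0255 CPM in this table, because 0.5 reads were added to every count.

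**Figure D1:**
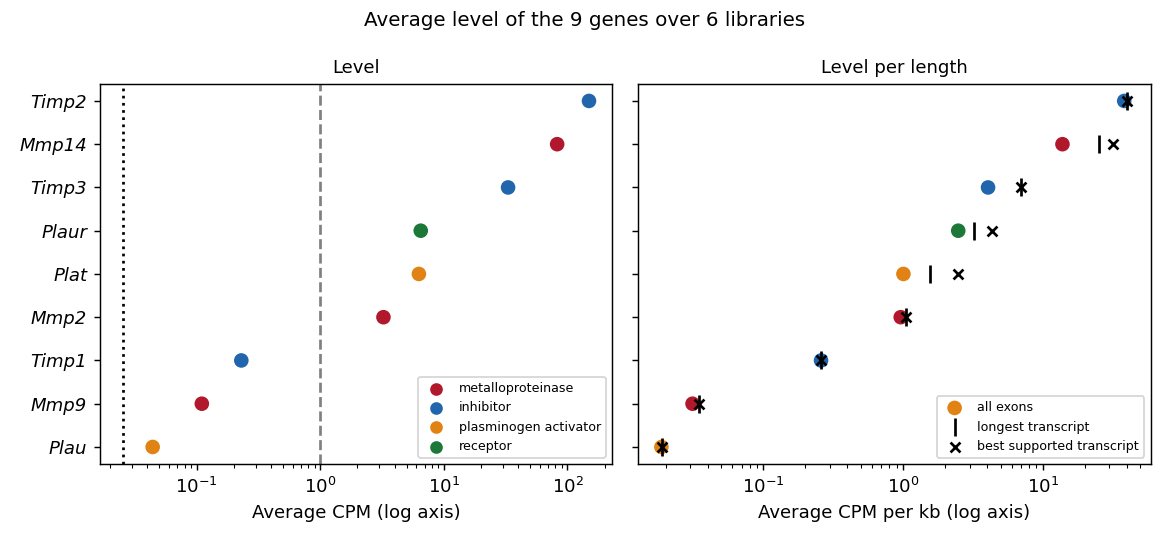
Average level of the 9 genes over the 6 libraries, as CPM (left) and as CPM per kb (right), both on log axes, with colours for the roles, a dashed line at 1 CPM and a dotted line at the 0.0255 CPM of a gene without reads. On the right, circles use all exons of a gene, bars the longest transcript and crosses the best supported transcript; Timp2 lies at the top and Plau at the bottom with each length.

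Sequences just before the start sites are shown for a metalloproteinase of high level, for the urokinase receptor and for an inhibitor of low average level, so that the regions upstream of genes with unlike levels can be read side by side. They come from RefSeq on GRCm38.p6, the build that mm10 corresponds to, in which 5 of the 9 genes had a window of 300 bases (250 before and 50 from the start site). Only bases upstream of the annotated starts of both RefSeq and GENCODE are printed, 5′ to 3′. Capitals mark matches on either strand to the GC box (GGGCGG) and to the AP-1 motif (TGANTCA), and neighbouring GC box matches can touch or overlap.
Mmp14 (chr14:54431348-54431597, plus strand): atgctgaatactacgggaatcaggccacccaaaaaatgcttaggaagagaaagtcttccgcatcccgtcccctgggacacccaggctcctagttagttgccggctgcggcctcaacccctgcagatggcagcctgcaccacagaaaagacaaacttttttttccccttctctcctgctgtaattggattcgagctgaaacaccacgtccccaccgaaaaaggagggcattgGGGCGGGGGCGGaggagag
Plaur (chr7:24462233-24462482, plus strand): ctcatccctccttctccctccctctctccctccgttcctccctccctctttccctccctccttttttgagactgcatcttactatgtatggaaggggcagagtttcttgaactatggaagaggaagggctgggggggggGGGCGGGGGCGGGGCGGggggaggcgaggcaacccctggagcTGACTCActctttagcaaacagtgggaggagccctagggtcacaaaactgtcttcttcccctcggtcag
Timp1 (chrX:20869916-20870165, plus strand): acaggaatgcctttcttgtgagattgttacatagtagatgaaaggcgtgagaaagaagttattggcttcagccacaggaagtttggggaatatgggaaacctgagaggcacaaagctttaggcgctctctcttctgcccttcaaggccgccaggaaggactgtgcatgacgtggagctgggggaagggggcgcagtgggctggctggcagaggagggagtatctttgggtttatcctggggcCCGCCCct

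All 5 windows, those of Mmp14, Timp1, Timp2, Timp3 and Plaur, held a GC box, which 35.7% of 32851 RefSeq windows of the same length also held. The window of Plaur was the only one of the 5 with an AP-1 match, TGACTCA from -69 to -63 relative to the RefSeq start, and 7.81% of all windows held such a match. None of the 5 held TATAAA or CACGTG on either strand, which were found in 13.6% and 7.15% of all windows. The windows of Timp2 and Timp3 contained 25 and 24 CpG dinucleotides, against 10 in Mmp14, 8 in Timp1, 7 in Plaur and a median of 7 over all windows. Among these 5 genes the number of CpG did not follow the order of the levels, since Mmp14 lay above Timp3 in level and below it in CpG. A match of letters does not show that a factor binds there.

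Among the metalloproteinases, Mmp14 was the highest of the 23 genes of the family, both by CPM and per kb. Mmp14 encodes MT1-MMP, a membrane-bound collagenase that also activates the Mmp2 proenzyme, and lies on chromosome 14 of GRCm38 from 54431612 to 54445364 on the plus strand. It averaged 82.5 CPM, a geometric mean of 1621 reads per library, and 13.8 CPM per kb. Of the 19227 genes with reads and a known length, 81.3% lay below it. Its level per kb was 25.5 with the longest transcript and 31.8 with the best supported one, since its exons sum to 5960 bases over 7 annotated transcripts and these transcripts have 3238 and 2596.

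Mmp2, gelatinase A, which degrades type IV collagen of basement membranes, averaged 3.25 CPM or 63.2 reads per library. It lies on chromosome 8 from 92827291 to 92853420 on the plus strand with 13 exons, and its 0.963 CPM per kb placed it above 46.8% of the genes with reads, but above only 11.8% of those with at least 1 CPM. Mmp14 was 14.4-fold higher than Mmp2 per kb of exon, and 24.2-fold or 30.2-fold higher with the longest or the best supported transcripts. The activator of the Mmp2 proenzyme was thus listed at a higher level than Mmp2 itself with all 3 lengths.

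Mmp9, gelatinase B, lay near the bottom of the range. It is found on chromosome 2 from 164940780 to 164955850 and averaged 0.11 CPM, a geometric mean of 1.66 reads per library. In the formula of voom, the average of a gene with few reads fixes the product over the 6 libraries of 2 times the reads plus 1, and this product was 6561 for Mmp9. The splits of that product over 6 libraries have totals from 12 to 3280 reads, with at least 4 reads in the highest library. How evenly the reads of Mmp9 were spread over the libraries is not known from the average.

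Of the other 20 metalloproteinases, 2 averaged at least 1 CPM, 12 had reads but less, and 6 had no read in any library. Mmp15, which encodes another membrane-type enzyme, averaged 2.25 CPM, Mmp11 (stromelysin 3) 1.16 CPM and Mmp23 0.917 CPM, and these were the highest of the 20 per kb of exon, with 0.417, 0.416 and 0.392 CPM per kb. With the longest or the best supported transcripts their order reversed, with 0.639 for Mmp23, 0.506 for Mmp11 and 0.438 for Mmp15. Mmp14 was 33.2-fold higher than Mmp15 per kb of exon, and 58.2-fold or 72.6-fold higher with the longest or the best supported transcripts. The genes without reads were Mmp1a, Mmp1b, Mmp7, Mmp8, Mmp20 and Mmp27. In 1 library of the mean size taken alone, a count of 0 allows up to 3 reads, or 0.153 CPM, which covers counting error only. A count of 0 in all 6 libraries sets a lower limit, which was not computed here.

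**Figure D2:**
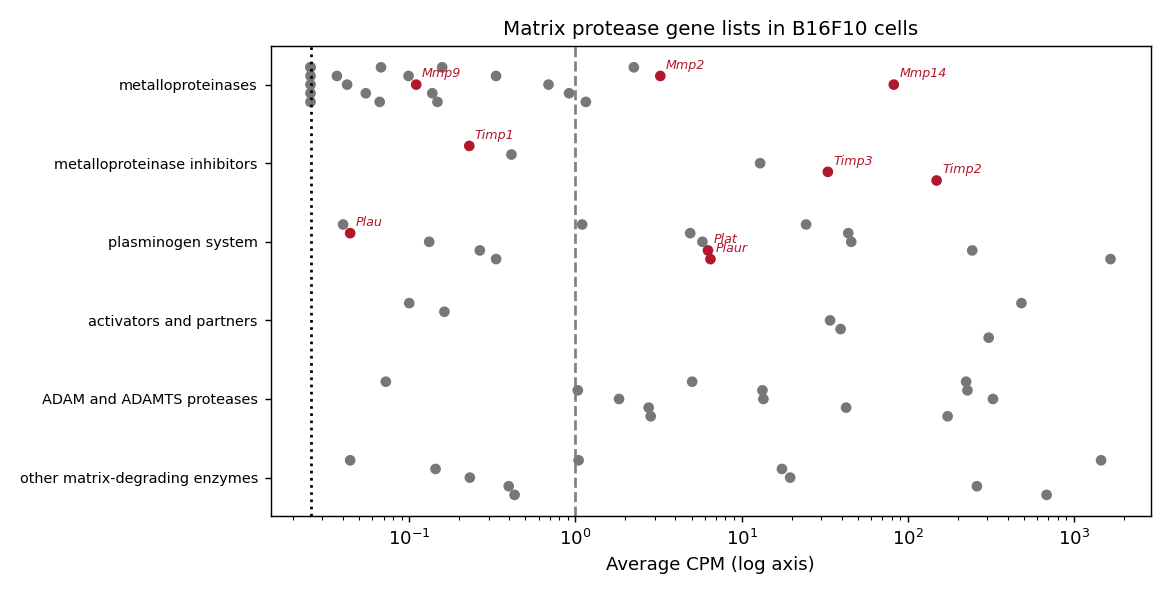
Average CPM on a log axis for each gene of 6 lists of matrix proteases and their partners, 1 point per gene, with the 9 genes in red, a dashed line at 1 CPM and a dotted line at the 0.0255 CPM of a gene without reads. Mmp14 at 82.5 CPM stands to the right of the other metalloproteinases, whose next values are 3.25 CPM for Mmp2 and 2.25 CPM for Mmp15.

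The inhibitors differed widely in level. Timp2, an inhibitor that also takes part with MT1-MMP in the activation of the Mmp2 proenzyme, averaged 149 CPM or 2933 reads per library, and its 38.3 CPM per kb lay above 94.0% of the genes with reads. It lies on chromosome 11 from 118301069 to 118355740 on the minus strand. Timp3, which binds to the matrix and also blocks several ADAM proteases, averaged 33.1 CPM and 4.06 CPM per kb, or 7.01 per kb with the longest transcript. It lies on chromosome 10 from 86300372 to 86349506 on the plus strand and had a geometric mean of 649 reads per library. Timp2 was 9.44-fold higher than Timp3 per kb of exon and 5.75-fold higher with the longest transcripts.

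Timp2 was 2.77-fold higher than Mmp14 per kb of exon, but only 1.58-fold with the longest and 1.27-fold with the best supported transcripts. How far this inhibitor exceeds the protease in RNA therefore depends on which transcripts the cells use and which exons were counted. Neither is known here.

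Timp1, a secreted inhibitor, averaged 0.23 CPM, a geometric mean of 4.01 reads per library, and 0.259 CPM per kb. It lies on the X chromosome from 20870166 to 20874735 on the plus strand. The product over the libraries was 542025, and in every split of it the highest library held at least 36 reads and the total lay between 50 and 271012. At least 1 library thus held far more reads of Timp1 than the geometric mean of 4.01, although the average does not tell which library this was. The remaining TIMP, Timp4, averaged 0.412 CPM and 0.07 CPM per kb, and Reck, a membrane-anchored inhibitor of metalloproteinases, 12.9 CPM and 2.71 CPM per kb.

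Each of the 3 TIMP genes shares its span with another gene. Timp1 lies inside Syn1 and Timp3 inside Syn3, synapsin genes transcribed from the opposite strand, while Cep295nl lies inside Timp2 on the same strand. Syn1 averaged 1.96 CPM, Syn3 11.7 CPM and Cep295nl 1.23 CPM. Timp1 and Timp2 share 0 exonic bases with their partners, whereas Timp3 shares 1733, or 21.3% of its exonic bases, with Syn3. The library kit keeps the strand, but the strand setting of the counting is not given in the sources used here, so reads in the stretch shared by Timp3 and Syn3 are of uncertain origin. No annotated gene overlaps the other 6 genes.

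**Figure D3:**
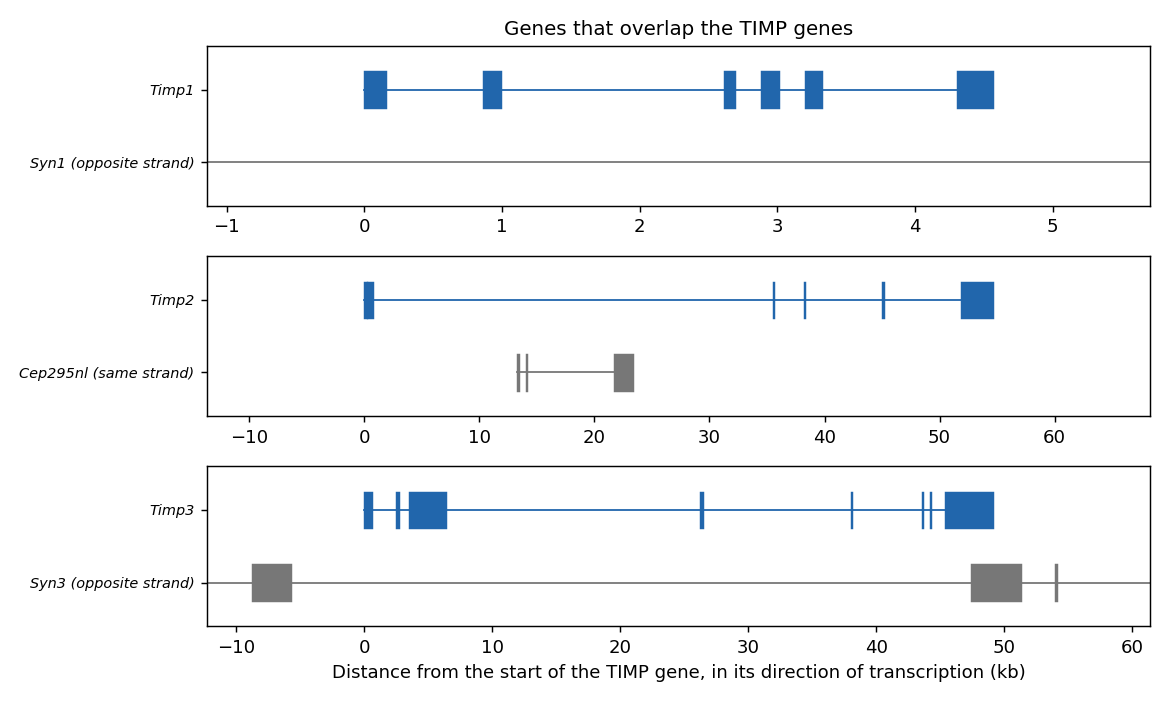
Exons (boxes) and spans (lines) of the 3 TIMP genes in blue and of the genes that overlap them in grey, by distance in kb from the start of each TIMP gene in its direction of transcription, with 1 scale per row. Only Timp3 shares exonic bases with its partner, 1733 bases at the 3′ end.

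In the plasminogen system the receptor and tPA were expressed, whereas urokinase was barely detected. Plaur, the urokinase receptor, lies on chromosome 7 from 24462484 to 24475968 on the plus strand and averaged 6.5 CPM, 127 reads per library and 2.48 CPM per kb. Plat, which encodes tPA, lies on chromosome 8 from 22757727 to 22782844 on the plus strand and averaged 6.28 CPM, 123 reads per library and 1.01 CPM per kb. The level per kb of Plat was 1.55 with the longest and 2.49 with the best supported transcript, since 6241 exonic bases are annotated against 4042 and 2525 in those transcripts. Plaur was 2.47-fold higher than Plat per kb of exon and 1.74-fold higher with the best supported transcripts.

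Plau, which encodes urokinase, the ligand of Plaur, averaged 0.0441 CPM, a geometric mean of 0.366 reads per library. It lies on chromosome 14 from 20836660 to 20843385 on the plus strand and has 11 exons. The product of 27 allows a total of 3 to 13 reads over the 6 libraries, and without the 0.5 added reads the level was 0.0186 CPM. The substrate gene Plg, plasminogen, which is made mainly by the liver, averaged 0.132 CPM. In these cells the RNA of the receptor therefore had a geometric mean of 127 reads per library, and that of its ligand was close to the limit of detection.

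All 15 genes of the plasminogen list examined here had reads, as did 17541 of the 20810 protein-coding genes. Of the 15, 10 (66.7%) averaged at least 1 CPM, against 53.8% of protein-coding genes and 56.2% of genes with reads. Of the inhibitors, Serpine2 (protease nexin 1) averaged 5.82 CPM and Serpini1 (neuroserpin, which blocks tPA) 4.91 CPM. Serpinf2, the plasmin inhibitor, averaged 0.333 CPM and Serpinb2 (PAI-2) 0.04 CPM. Binding partners of plasminogen or tPA at the cell surface stood higher, with 1663 CPM for Eno1, which is also a glycolytic enzyme and can share reads with near-identical copies, 245 CPM for Anxa2, 45.7 CPM for its partner S100a10 and 24.5 CPM for Plgrkt. Lrp1, a receptor that takes up complexes of activators and inhibitors, averaged 43.9 CPM. Mrc2, which takes up collagen fragments and associates with the urokinase receptor, averaged 1.1 CPM, and Vtn, the matrix protein vitronectin, 0.266 CPM.

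**Figure D4:**
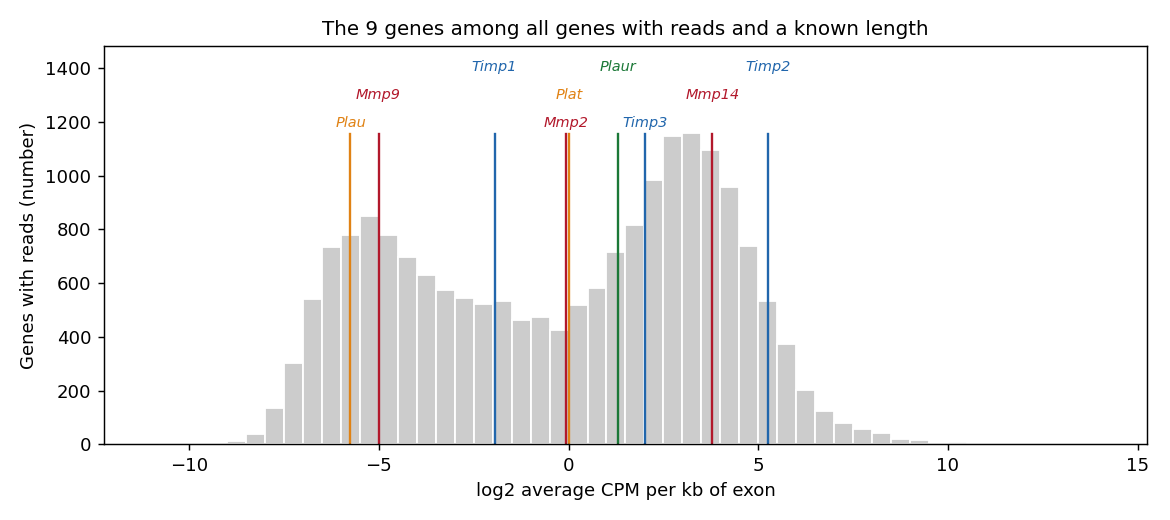
Number of genes with reads (bars, 19227 genes) by log2 average CPM per kb of exon, with vertical lines for the 9 genes in the colours of their roles. Plau and Mmp9 lie in the left hump of genes with low averages, and Mmp14 and Timp2 lie in or above the right hump of expressed genes.

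Genes for other matrix proteases were also expressed. Of 13 ADAM and ADAMTS genes, 12 averaged at least 1 CPM, with 326 CPM for Adam9 and 229 CPM for Adamts1. Of 11 other matrix-degrading enzymes, 6 did, and the lysosomal proteases Ctsd and Ctsb reached 1460 and 686 CPM. Of 6 activators and partners of metalloproteinases, 4 did, among them Furin, which cuts the Mmp14 proenzyme, with 39.5 CPM, and Bsg, an inducer of metalloproteinases, with 307 CPM. These genes were chosen for naming after their values were seen. By comparison, 53.8% of all protein-coding genes and 56.2% of genes with reads averaged at least 1 CPM. The 6 of 11 other matrix-degrading enzymes (54.5%) lay near these shares.

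The labelled melanoma identity was checked against lineage markers. All 7 melanocyte markers averaged at least 1 CPM, from 109 CPM for Sox10 to 7052 CPM for Dct. Of 5 leukocyte markers 0 did, and the highest was Itgam with 0.271 CPM, although its average requires at least 48 reads in the highest library. Of 3 endothelial markers, Pecam1 did with 1.21 CPM, and of 4 fibroblast markers, Pdgfra and Col1a1 did with 3.28 and 1.7 CPM. Of 3 keratinocyte markers 0 did, and Krt5 had no reads. In bulk RNA, few cells with a high level and many cells with a low level of a gene cannot be told apart.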

How the data were processed

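Libraries of 3 OLO-treated and 3 OZO-treated B16F10 samples were prepared with a directional kit and sequenced. According to the methods and the submitters' processing notes, the authors aligned reads to mm10 with HISAT2 2.1.0, counted them with featureCounts 2.1.1 and analysed them with limma 3.58.1 (voom). The deposited table holds, for 27179 genes, an average log2 CPM over all libraries and 5 columns of the authors' own comparison of OZO with OLO (log2 fold change, moderated statistic, both p-values and log odds). These 5 columns were not used, no level per library was analysed, no test was made, and the design planned for single libraries was not run. Depth of each library is unknown.

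CPM was obtained as the antilog of the average. The 6025 genes without reads share the lowest value, which with the 0.5 reads added by voom gives the geometric mean library size, and reads per library are given as the geometric mean of reads plus 0.5, less 0.5. For the 5479 genes with the fewest reads, the product of 2 times the reads plus 1 was within 0.01 of a whole number in 100% of cases. Lengths and positions came from GENCODE M21 (GRCm38), in which 23906 of 24126 Ensembl identifiers were found, and the main length was the summed exons. The annotation used for counting was not identified here, so the counted exons and these lengths may differ. The best supported transcript was chosen by APPRIS rank, then support level. The members and lists were chosen with earlier results of these data known. The rule named the 9 genes, Timp4, inhibitors and receptors of the plasminogen system, the 3 other metalloproteinases with the highest level per length and genes overlapping a member. A further gene planned for the plasminogen list was left out of its counts and is not reported here. Python 3.11.15, numpy 2.4.6, pandas 2.3.3 and matplotlib 3.10.9 were used.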

Additional observations from a re-analysis of the deposited data

How the results depend on the processing

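No paired analysis was possible because only 1 average per gene over all libraries was used. For the same reason, leaving out each library, another normalization, a filter on counts and a test of OZO against OLO were not run, and the identity of the proteins was not computed because no protein sequences were used here. The median level per length of the 9 genes was 1.01 CPM per kb with all exons, 1.55 with the longest and 2.49 with the best supported transcript. At a limit of 5 CPM, 1 of the 23 metalloproteinases (Mmp14) remained in place of 4. The other counts of genes at the limit stayed within 1.5 times at 0.5 and 5 CPM, including those of the 9 genes. Subtracting the 0.5 reads gave 0.0186 in place of 0.0441 CPM for Plau, 0.0847 in place of 0.11 for Mmp9 and 0.204 in place of 0.23 for Timp1, and lowered each of the other 6 levels by at most 0.784%. Among protein-coding genes the share of genes below Mmp14 was 79.8% and below Timp2 93.5%. Among genes of at least 1 CPM these shares were 68.7% and 89.9%, and the shares below Timp3, Plaur, Plat and Mmp2 were 34.8%, 25.04%, 12.3% and 11.8%, in place of 61.0%, 55.1%, 47.1% and 46.8% among genes with reads. Depth limits Plau, with at most 13 reads in all, while the read totals of Mmp9 and Timp1 are known only within wide bounds.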
